A study of Mus musculus with 6 samples.

Results

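The ATF4-CHOP arm of the stress response was followed through 10 genes, Atf4, Ddit3, Trib3, Atf3, Atf5, Cebpb, Cebpg, Chac1, Sesn2 and Ppp1r15a. They were taken by name from a table of 55487 mouse genes, where they had 11 identifiers, and all 10 genes passed the filter on low counts. The libraries are bulk RNA-seq of MIN6 cells, a mouse insulin-secreting line that stands in for pancreatic beta cells. One group was transiently transfected with full-length PTHrP, the parathyroid hormone-related protein made from Pthlh (3 libraries), and the other with the DsRed vector that carries a red fluorescent protein (3 libraries). Both groups went through the same lipid transfection, and RNA was taken at most 3 days later. Which promoter drives the constructs, and what share of cells took them up, is not given in the sources used here. The series title asks how PTHrP bears on stress of the endoplasmic reticulum (ER) in beta cells, and PTHrP against DsRed is the 1 contrast of the design.

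When unfolded proteins, amino acid shortage or other stresses activate one of the kinases of eIF2alpha, general translation drops while a few mRNAs with short upstream reading frames are translated more. ATF4 is the best known of them. It pairs with C/EBP proteins, binds composite C/EBP-ATF response elements (CARE) and turns on amino acid supply genes as well as Ddit3, which encodes CHOP. In beta cells lasting ER stress is known to work through CHOP towards cell death. Counts of mRNA do not measure the translation step at which ATF4 and several of the other proteins are controlled.

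The start sites of some of the genes hold elements known from this pathway. Within 250 bases before to 50 bases after the RefSeq start site (GRCm38.p6), the CARE core TGATGNAA was found on either strand in 3 of the 10 genes, Chac1, Atf3 and Trib3, and in 4.51% of 27025 genes. The cAMP response element TGACGTCA was found in 1, Ppp1r15a, and in 2.03% of genes. The ER stress response element ERSE was found in 0 of the 10 and in 0.14% of genes, and no match overlapped another. Variants of this element that depart from the searched pattern were not looked for. The count of 0 therefore does not show that Ddit3 or the other genes lack such an element. The stretches around the matches are shown 5′ to 3′ on the strand of the gene, with the match in capitals, because these genes hold the elements through which ATF4 and CREB family factors are known to act. The matches start 193 bases before the start site in Chac1 (chr2:119351038-119351067, + strand), 110 before it in Atf3 (chr1:191183425-191183454, - strand), 14 after it in Trib3 (chr2:152344028-152344057, - strand) and 12 before it in Ppp1r15a (chr7:45526262-45526291, - strand).
Chac1: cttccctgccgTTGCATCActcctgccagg
Atf3: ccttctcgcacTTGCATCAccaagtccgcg
Trib3: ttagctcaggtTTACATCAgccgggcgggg
Ppp1r15a: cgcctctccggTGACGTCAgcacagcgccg
Chac1 and Atf3 carry the same letters, a form of the core read from the other strand, and Trib3 differs from them at the free position. A match is a description of the letters and not a bound site.

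Library totals were 84427033 to 94613684 counts, and 21141 genes were tested. Pthlh had 553 to 797 counts in the PTHrP libraries against 0 to 8 in the DsRed libraries, which fits the labels. All 13 beta cell markers were above 1 CPM in every library (counts per 1e+06 counts of the library). Of 17 markers of other islet, duct, acinar, stromal and blood cells, 13 were below 1 CPM in all libraries, while Gcg, the glucagon gene, had 136 to 176 CPM with PTHrP and 145 to 151 CPM with DsRed. The summed level of these 17 was 144 to 182 CPM with PTHrP and 154 to 158 CPM with DsRed. PTHrP replicate 2 bears most on the number of calls, which was 213 without it and 9 with all 6 libraries. It was also the library least like the others in raw counts. Compared pair by pair, the chi-square per gene was 55.5 to 68.6 with it and 9.08 to 36.8 among the other libraries. The SD of log2 CPM around the group mean was 0.47 for it and 0.46 for PTHrP replicate 1. The SEs and intervals below come from the fit that includes it.

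None of the 10 genes passed the test, and most of their levels lay within a narrow band around those of the DsRed cells. The edgeR quasi-likelihood test with Benjamini-Hochberg adjustment over all genes called 0 of the 10 at an adjusted p of 0.05, where it called 0.0426% of the genes tested. The adjusted p of the 10 ran from 0.565 to 0.952. At an unadjusted p under 0.05 there were again 0 of the 10, against 8.90% of all genes. DESeq2 and limma-voom also called 0, and in each 1 of the 10, Atf5, had an unadjusted p under 0.05 (0.0304 and 0.0367). The lowest p of any setting was also that of Atf5, 0.00101 with no filter on low counts (edgeR adjusted p = 0.131), and a replicate block gave it 0.0285. With 1 library or the scaling changed, values under 0.05 before adjustment also came from Atf5 (without PTHrP replicate 1 or 3), Cebpg (library sizes alone, and without DsRed replicate 3), and Trib3 and Atf3 (without PTHrP replicate 2). The edgeR adjusted p of Trib3 and Atf3 was then 0.327 and 0.281. Fold changes were positive for 4 and negative for 6, with a median of -0.04 on the log2 scale against -0.01 over all genes tested. This split depended on single libraries: leaving out PTHrP replicate 1, PTHrP replicate 2 or DsRed replicate 2 turned it to 6 positive and 4 negative, with medians of 0.0050, 0.016 and 0.020.

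The counts behind these values were high. They ran from 2617 for Atf5 in PTHrP replicate 2 to 77901 for Sesn2 in PTHrP replicate 3, and counting error alone was at most 1.96% of a value. The mean levels lay between the 76.2 and 99.6 percentiles of the genes tested. As this is RNA of whole cultures, fewer cells that express a gene and less of its RNA per cell cannot be told apart.

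Atf4, on chromosome 15 at 80255184 to 80257541 (GRCm38, + strand), encodes the factor that gives the pathway its name. It had 381, 461 and 400 TMM-scaled CPM, the scale used from here on, in the PTHrP libraries, against 405, 401 and 391 CPM in the DsRed libraries. The DsRed values were close together, while PTHrP replicate 2 lay above all other libraries and PTHrP replicate 1 below them. The means were 414 ± 41.8 CPM with PTHrP and 399 ± 7.33 CPM with DsRed (SD, n = 3 each). On the log2 scale the fold change was 0.05, with a standard error (SE) of 0.07 and a 95% interval of -0.10 to 0.21 (edgeR, adjusted p = 0.872). Leaving out PTHrP replicate 2 made it -0.028.

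Ddit3 encodes CHOP, a C/EBP family factor induced by ATF4 and tied to stress-related cell death. It is on chromosome 10 at 127290774 to 127296288, + strand. Its level was 111, 109 and 126 CPM with PTHrP, against 113, 120 and 118 CPM with DsRed. The DsRed libraries fell inside the range of the PTHrP libraries, whose highest value came from replicate 3. Its log2 fold change was -0.02 (SE 0.07, edgeR adjusted p = 0.952), with an interval of -0.17 to 0.13. As folds these bounds are 0.890 and 1.09, so an increase in Ddit3 mRNA of more than 1.09-fold lay outside the interval.

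The second identifier named Ddit3 had 0 counts in all 6 libraries. In the annotation GENCODE M21 its 105 exonic bases all lie inside the exons of the first, of whose 1713 bases they are 6.13%. Over 68 bases the exons of Ddit3 overlap those of the methionyl-tRNA synthetase gene Mars1 on the opposite strand. Mars1 had 416 ± 22.6 CPM with PTHrP and 323 ± 14.2 CPM with DsRed. Neither the strand setting of the counting nor its rule for reads that match more than 1 gene is given in the sources used here, and the effect of either on the Ddit3 counts was not tested.

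Of the other transcription factors, Atf5 had the lowest fold change of all 10 genes and Cebpg the highest, and neither passed. Atf5, on chromosome 7 at 44812256 to 44816658, - strand, is an ATF4 relative linked to mitochondrial stress and to beta cell survival. It had 43.9, 30.8 and 45.0 CPM with PTHrP, against 45.3, 49.4 and 51.5 CPM with DsRed. Every PTHrP library was below every DsRed library, but PTHrP replicates 1 and 3 lay just under DsRed replicate 1, and replicate 2 was far below. Its log2 fold change was -0.29 (SE 0.13), with an interval of -0.58 to 0.0045 (edgeR adjusted p = 0.565). It moved to -0.13 without PTHrP replicate 2 and to -0.38 without PTHrP replicate 3. Exons of Atf5 share 82 bases with those of Nup62 on the opposite strand, a nuclear pore gene at 197 CPM with PTHrP and 191 CPM with DsRed (not TMM-scaled).

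Cebpg encodes C/EBP gamma, a frequent dimer partner of ATF4 with no activation domain of its own. It lies on chromosome 7 at 35046422 to 35056573, - strand. Its level was 187, 195 and 183 CPM with PTHrP, against 174, 164 and 181 CPM with DsRed. All 3 PTHrP libraries were above the DsRed ones, the nearest being PTHrP replicate 3 and DsRed replicate 3. Its log2 fold change was 0.13 (SE 0.06), and the interval of -0.0026 to 0.26 just held 0 (edgeR adjusted p = 0.567).

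Cebpb, the gene of C/EBP beta, is also a partner of ATF4 and a stress-induced factor in its own right. On chromosome 2 at 167688915 to 167690418, + strand, it had 78.5, 87.6 and 87.5 CPM with PTHrP, against 76.4, 80.4 and 87.4 CPM with DsRed. The groups overlapped, since DsRed replicate 3 was level with the upper PTHrP libraries. That made a log2 fold change of 0.05 (interval -0.10 to 0.21, edgeR adjusted p = 0.879), which was 0.0087 without DsRed replicate 1 and 0.11 without DsRed replicate 3. Opposite-strand exons of Tmem189 cover 312 of its 1504 exonic bases, or 20.7%, and that gene had 55.2 CPM with PTHrP and 57.9 CPM with DsRed (not TMM-scaled).

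Atf3, an early stress factor that can repress as well as activate, is on chromosome 1 at 191170296 to 191218039, - strand. It had 56.4, 73.9 and 59.7 CPM with PTHrP, against 68.0, 73.0 and 58.6 CPM with DsRed. High and low libraries occurred in both groups, with PTHrP replicate 2 and DsRed replicate 2 nearly equal at the top. Between the groups the log2 fold change was -0.07 (SE 0.11, interval -0.32 to 0.17, edgeR adjusted p = 0.900). Leaving out PTHrP replicate 2 made it -0.20, and leaving out PTHrP replicate 1 made it 0.0040.

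**Figure D1:**
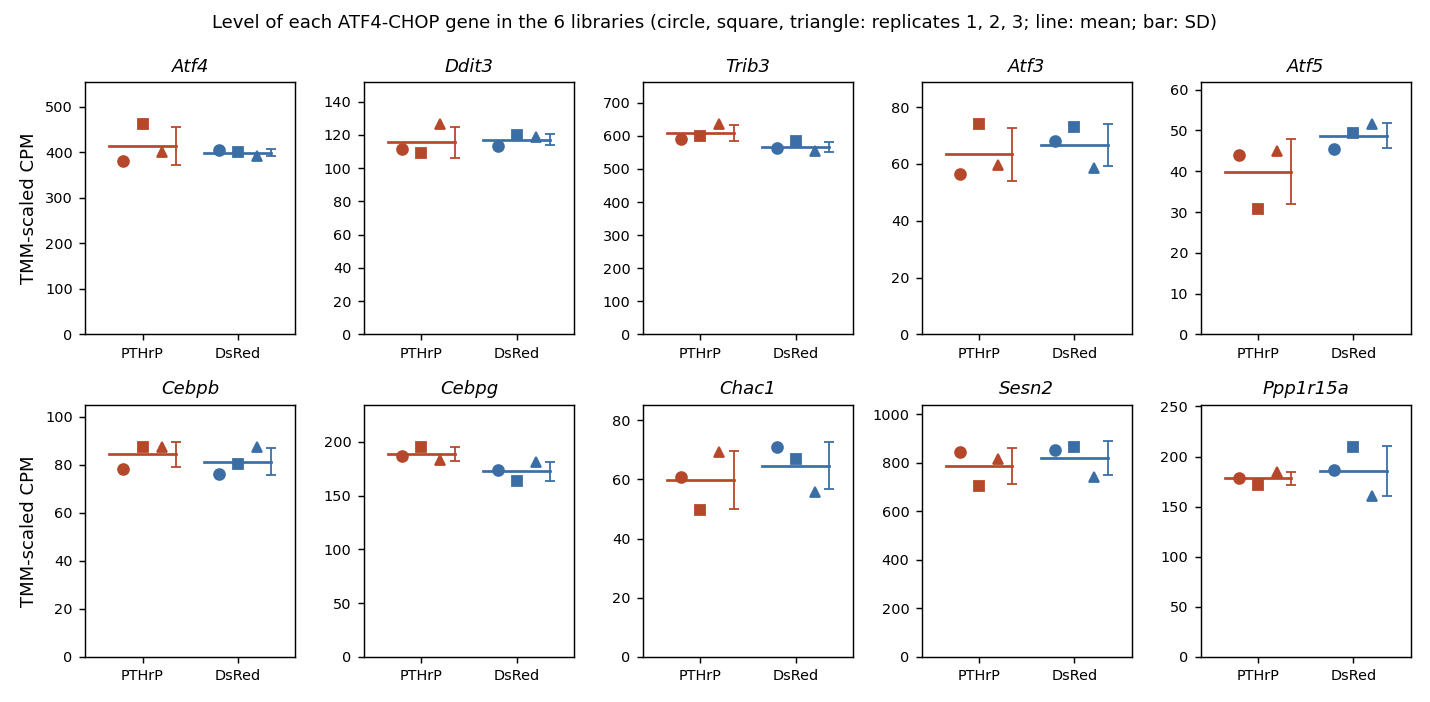
Level of each of the 10 genes in TMM-scaled CPM (vertical axes, from 0), with the 3 PTHrP libraries left of the 3 DsRed libraries. Circles, squares and triangles are replicates 1, 2 and 3, lines are means and bars are SD (n = 3). The groups lie apart, by a small margin, for Trib3, Atf5 and Cebpg and overlap for the other 7.

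Among the direct effectors, Trib3 and Sesn2 were the most abundant and Chac1 varied most, and here too none passed. Trib3 is a pseudokinase that ATF4 and CHOP induce and that in turn inhibits both ATF4 and AKT. On chromosome 2 at 152337422 to 152344032, - strand, it had 589, 599 and 635 CPM with PTHrP, against 563, 584 and 555 CPM with DsRed. Each PTHrP library was above each DsRed library, the nearest being PTHrP replicate 1 and DsRed replicate 2. A log2 fold change of 0.10 resulted (SE 0.05, interval -0.02 to 0.21, edgeR adjusted p = 0.624).

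Chac1, an enzyme that breaks down glutathione and is a sensitive ATF4 target, lies on chromosome 2 at 119351229 to 119354381, + strand. It had 60.7, 49.6 and 69.3 CPM with PTHrP, against 71.0, 67.0 and 55.9 CPM with DsRed. PTHrP replicate 2 and DsRed replicate 3 were the lowest libraries and the rest were mixed. The log2 fold change of -0.11 had an SE of 0.13 and an interval of -0.39 to 0.17 (edgeR adjusted p = 0.851). It moved to 0.010 when PTHrP replicate 2 was left out and to -0.23 when PTHrP replicate 3 was. Chac1, Atf3 and Trib3, the 3 genes with the CARE letters, thus lay on both sides of 0.

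Sesn2 encodes Sestrin 2, a leucine sensor that restrains mTORC1 and is also a p53 target. It lies on chromosome 4 at 132492032 to 132510501, - strand. Its level was 843, 704 and 818 CPM with PTHrP, against 852, 867 and 742 CPM with DsRed. The same 2 libraries as for Chac1, PTHrP replicate 2 and DsRed replicate 3, were lowest. Its log2 fold change was -0.06 (interval -0.23 to 0.12, edgeR adjusted p = 0.884).

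Ppp1r15a encodes GADD34, which brings protein phosphatase 1 to eIF2alpha and so ends the translation block. It lies on chromosome 7 at 45522916 to 45526268, - strand. The PTHrP libraries had 179, 171 and 185 CPM, against 187, 210 and 160 CPM in the DsRed libraries. All PTHrP values fell within the DsRed range, which was the wider one. The log2 fold change was -0.06 (interval -0.25 to 0.13, edgeR adjusted p = 0.891), and it was -0.16 without DsRed replicate 3 and 0.039 without DsRed replicate 2.

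For 3 of the 10 genes, Trib3, Atf5 and Cebpg, the groups did not overlap. Over all genes tested this held for 16.3%. The exact two-sided permutation test gave p = 0.1 for each of the 3, the smallest value that 3 against 3 libraries can reach. With scaling by library size alone Atf5 overlapped, as it did with no filter on low counts, and with a filter of 1 CPM Cebpg did.

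All 10 intervals held 0, and their upper bounds can be set beside the genes of the same fit that did pass. Pck2, the mitochondrial phosphoenolpyruvate carboxykinase and an ATF4 target, had 195 ± 2.64 CPM with PTHrP and 126 ± 1.80 CPM with DsRed. Its log2 fold change of 0.63 had an interval of 0.52 to 0.74 (edgeR adjusted p = 0.000830), and the intervals of all 10 genes lay wholly below it. Pck2 ranked 2 by p among all genes tested and is set here because it passed. A place below it therefore does not set the 10 genes apart from other ATF4 targets. Of these, Mars1 (0.24 to 0.50) also lay below it, while Shmt2 (0.29 to 0.58) reached it. Hspa5, the ER chaperone BiP, had a log2 fold change of -0.55 with an interval of -0.69 to -0.41 (edgeR adjusted p = 0.0121), and 9 of the 10 lay wholly above that. The exception was Atf5. Hspa5 ranked 4 by p among all genes tested, so a place above it does not set the 10 genes apart either. The share of all genes below Pck2 or above Hspa5 was not counted.

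**Figure D2:**
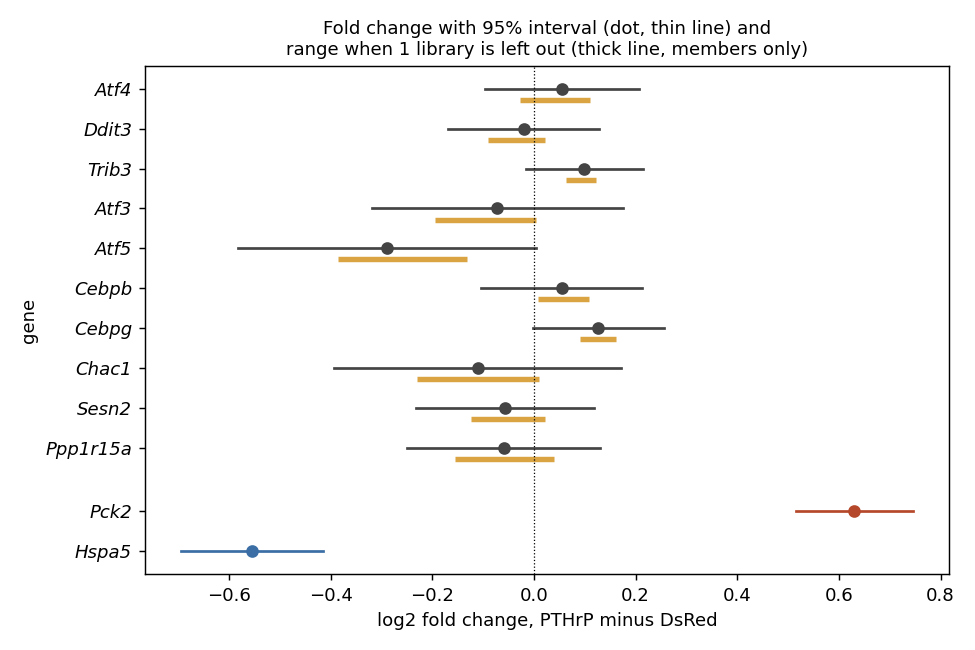
Log2 fold change, PTHrP minus DsRed (horizontal axis), of the 10 genes and of Pck2 and Hspa5, as dots with 95% intervals from the edgeR fit (thin lines). Thick lines span the fold changes when each of the 6 libraries is left out in turn. All 10 intervals hold 0, and in 6 of the 10 genes the thick line lies on both sides of 0.

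The genes did not vary as a block between libraries. PTHrP replicate 2 was the highest of the 6 libraries for 4 of the 10 genes (Atf4, Atf3, Cebpb and Cebpg) and the lowest for another 4 (Ddit3, Atf5, Chac1 and Sesn2). There Atf4 was 0.18 above its own mean on the log2 CPM scale, while Atf5 was 0.51, Chac1 0.32 and Sesn2 0.19 below theirs. DsRed replicate 3 was lowest for Trib3 and Ppp1r15a and below the mean for Chac1, Sesn2, Atf3 and Atf4 as well. Over the 6 libraries Atf5 covered 0.74 log2 units and Chac1 0.52, whereas Trib3 covered 0.19, Cebpb 0.20 and Ddit3 0.21.

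**Figure D3:**
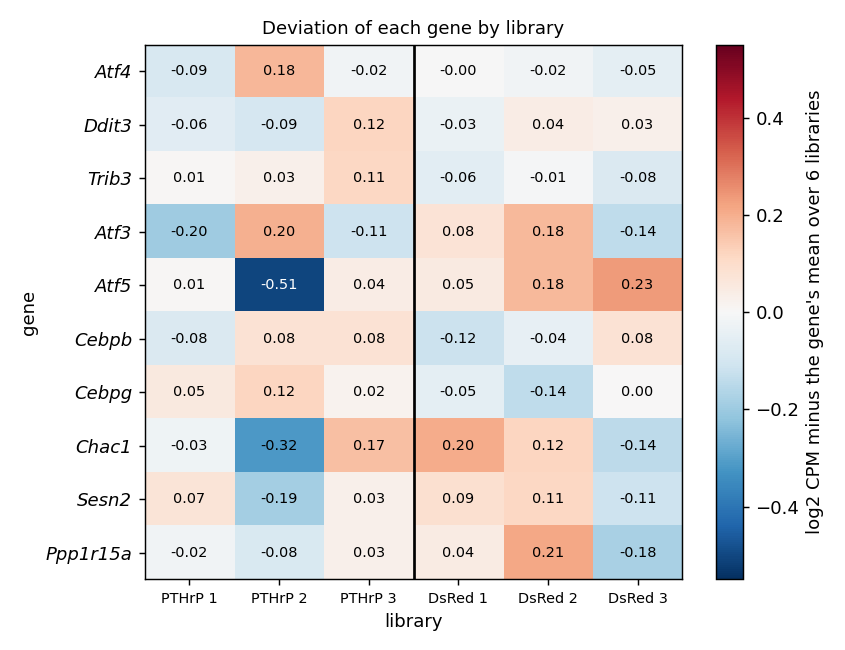
Deviation of each gene's log2 CPM from its own mean over the 6 libraries (colour and printed value), with genes in rows, PTHrP libraries left of the black line and DsRed libraries right of it. The column of PTHrP replicate 2 runs from 0.20 for Atf3 to -0.51 for Atf5.

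Set per length of exon, the levels of the 10 genes fell in an order that was nearly the same in both groups. Trib3 was highest at 286 CPM per kb with PTHrP and 267 CPM per kb with DsRed, its 6 libraries lying between 261 and 299. Sesn2 followed at 227 ± 21.5 with PTHrP and 236 ± 19.7 with DsRed, and Atf4 at 176 ± 17.7 with PTHrP and 169 ± 3.11 with DsRed (all CPM per kb, SD, n = 3 each). With these lengths the libraries of these 3 genes did not overlap with each other. For Atf4 the joined exons have 2358 bases, the whole span of the gene, so a shorter transcript would give a higher level per kb. Its place below Trib3 and Sesn2 depends on this length, and another length was not tested. Next came Ddit3, Ppp1r15a and Cebpb, at 56.2 to 67.5 CPM per kb with PTHrP and 54.1 to 68.4 with DsRed, where each gene's range over the 6 libraries overlapped that of its neighbour. Chac1, Cebpg and Atf3 overlapped in the same way at 29.4 to 36.6 CPM per kb with PTHrP and 30.7 to 39.5 with DsRed. Atf5 was lowest in both groups, with 15.4 to 25.8 CPM per kb over the 6 libraries.

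The libraries of Atf4 were most nearly matched by those of Clcn4, Pcsk2os1 and Chchd3 among 9367 genes whose mean log2 CPM was 3 or more. The root mean square difference of their centred log2 CPM from that of Atf4 over the 6 libraries was 0.014, 0.016 and 0.018. For Ddit3 the nearest were Daxx, Tmem251 and Lsm1, at 0.028, 0.029 and 0.032. In so few libraries a small distance describes these samples and no more.

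Upstream start codons, a feature of mRNAs under translational control, were counted in the 5′ leader of 1 principal GENCODE M21 transcript per gene. Ties went to the longest coding sequence and then to the longest transcript, which can favour long leaders. The same rule was used for all genes, and which transcripts these cells make was not tested. They were present in 7 of the 10 genes, whose leaders have 107 to 764 bases. Of the 14455 genes with a leader over 100 bases 69.0% hold one, close to the share among the 10, and of all 20579 genes with a leader 54.4%. Ppp1r15a had 7 in a leader of 764 bases, Atf4 had 3 in 594 bases, Atf5 had 2 in 373 bases and Ddit3 had 2 in 186 bases. Atf3, Cebpg and Sesn2 had 1 each, while Trib3, Cebpb and Chac1 had 0. Only codons before the annotated coding start were counted, which for Cebpb opens a coding sequence of 296 codons. Short frames after that start were not looked for, so a count of 0 does not show that translational control is absent. A reading frame that starts upstream and runs past the start of the coding sequence was present in Atf4, Atf5 and Ppp1r15a, or 3 of the 10, and in 21.3% of the genes with a leader over 100 bases.

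The supply genes that ATF4 is known to induce all had fold changes above 0, and 1 of them passed. Of 27 such genes for amino acid and one-carbon metabolism, amino acid transport, tRNA charging and 4E-BP1, 27 had positive fold changes, with a median of 0.19 on the log2 scale against -0.01 over all genes. They ran from 0.0094 for Cbs (SE 0.08) to 0.63 for Pck2 (SE 0.05). The list was chosen with earlier results of these data known, so the count of signs is a description and not independent support. Pck2 was the 1 that passed the edgeR test, and 26 did not. Shmt2, the mitochondrial serine hydroxymethyltransferase, had 353 ± 17.6 CPM with PTHrP and 261 ± 20.4 CPM with DsRed (log2 fold change 0.44, edgeR adjusted p = 0.0638), and Mars1 a log2 fold change of 0.37 (adjusted p = 0.0711). edgeR gave an unadjusted p under 0.05 for 13 of the 27, all with positive fold changes, against 8.90% of all genes. In 12 of the 27, or 44.4%, the groups did not overlap, against 16.3% of all genes tested. In the lists described below this share was 35.3% for the eIF2alpha kinases and phosphatases and 37.5% for ATF4 turnover. It was 17.4 to 25.0% in the remaining lists. All 27 stayed positive under both other scalings, whereas 23 did without PTHrP replicate 2 and 24 without PTHrP replicate 1 or DsRed replicate 3. Without PTHrP replicate 2 the test called 10 of the 27, where it called 213 of 22316 genes in all. With no filter on low counts it called 9 (220 of 44413 genes), and with library sizes alone 3 (14 of 21141). DESeq2 called 5 (136 of 21141) and limma-voom 1 (9 of 21141). The larger counts thus came in settings that also called more genes in all than the 9 of the main fit.

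Upstream, the kinases of eIF2alpha, eIF2 itself, its phosphatases and their modulators gave 17 tested genes, of which 0 passed in either direction. Positive fold changes were seen for 5 and negative ones for 12, with a median of -0.04. Leaving out PTHrP replicate 2 turned this to 9 positive and 8 negative, with a median of 0.0056, and leaving out PTHrP replicate 1 gave a median of -0.08. The 3 with the smallest p were Dnajc3, Eif2ak3 and Nck1. Dnajc3, an ER co-chaperone reported to inhibit PERK, had 184 ± 3.10 CPM with PTHrP and 241 ± 27.7 CPM with DsRed. Its log2 fold change was -0.39 (edgeR adjusted p = 0.178). Eif2ak3, which encodes PERK, was at -0.20 (edgeR adjusted p = 0.348) and the adaptor Nck1 at -0.29 (edgeR adjusted p = 0.349). At an unadjusted p under 0.05 there were 5 of these 17, all with negative fold changes, where 8.90% of all genes were. DESeq2 called 1 of the 17, limma-voom 0, the fit with no filter on low counts 2 and the fit without PTHrP replicate 2 called 1. Over all genes these fits called the numbers given with the supply genes.

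Of 23 tested stress targets of ATF4 or CHOP outside amino acid supply, 0 passed in either direction and the median was 0.00, with 11 positive and 12 negative fold changes. At an unadjusted p under 0.05 there were 3 of the 23, against 8.90% of all genes. DESeq2 and limma-voom called 0, and the fit without PTHrP replicate 2 called 1, of 213 calls over all genes. With 1 library left out the median ran from -0.036 to 0.0093. The stress cytokine Gdf15 had only 0.416 ± 0.0315 CPM with PTHrP and 0.116 ± 0.0762 CPM with DsRed, a log2 fold change of 1.83 with an interval of 0.52 to 3.14 (edgeR adjusted p = 0.393). For the phosphatase gene Dusp4 the value was -0.24 (adjusted p = 0.433), and for the lipoprotein receptor gene Vldlr it was 0.24 (adjusted p = 0.455).

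The 29 tested basic leucine zipper genes that can pair or compete with ATF4, CHOP and the C/EBP proteins also gave 0 calls, with a median of -0.03. At an unadjusted p under 0.05 there were 5 of the 29, against 8.90% of all genes. DESeq2 called 1 and limma-voom 0, while 3 were called with no filter on low counts, 2 without PTHrP replicate 2 and 1 without DsRed replicate 3. The last of these fits called 17 of 22258 genes, and the other totals are those given with the supply genes. Leaving out 1 library moved the median between -0.08 (without PTHrP replicate 1) and -0.0049 (without DsRed replicate 1). Their smallest p belonged to the circadian factor Dbp, at 0.36 on the log2 scale (edgeR adjusted p = 0.324), the early response gene Fosb at -0.91 (adjusted p = 0.343) and the small Maf gene Mafg at 0.18 (adjusted p = 0.406). Of 8 relatives of the 10 genes 0 passed, 1 had an unadjusted p under 0.05, against 8.90% of all genes, and DESeq2 and limma-voom called 0. Their median was -0.07, and -0.13 to -0.023 with 1 library left out (without DsRed replicate 3 and without PTHrP replicate 2). Trib1 had 49.0 ± 4.39 CPM with PTHrP and 60.2 ± 1.76 CPM with DsRed (log2 fold change -0.30, adjusted p = 0.319), while Trib2 was at -0.07. Sesn3 was at -0.21 and Sesn1 at 0.16 beside the -0.06 of Sesn2, and Ppp1r15b, the constitutive counterpart of GADD34, was at -0.06.

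Genes of ATF4 turnover made up the last list, and 0 of 8 passed, with 6 positive fold changes and a median of 0.11. At an unadjusted p under 0.05 there were 2 of the 8, against 8.90% of all genes. DESeq2 and the fit with no filter on low counts called 1 each, of 136 and 220 calls over all genes, and limma-voom 0. Egln1, an oxygen-sensing prolyl hydroxylase, had 142, 157 and 115 CPM with PTHrP, against 100, 72.6 and 68.3 CPM with DsRed. All PTHrP libraries were above the DsRed ones, at a log2 fold change of 0.78 with an SE of 0.18 (edgeR adjusted p = 0.338). Its relatives Egln2 and Egln3 had 0.14 (edgeR adjusted p = 0.551) and 0.18 (edgeR adjusted p = 0.797). Which of the 3 acts on ATF4 in these cells was not tested. Btrc, part of the ubiquitin ligase that marks ATF4 for degradation, had 0.13 (adjusted p = 0.584).

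**Figure D4:**
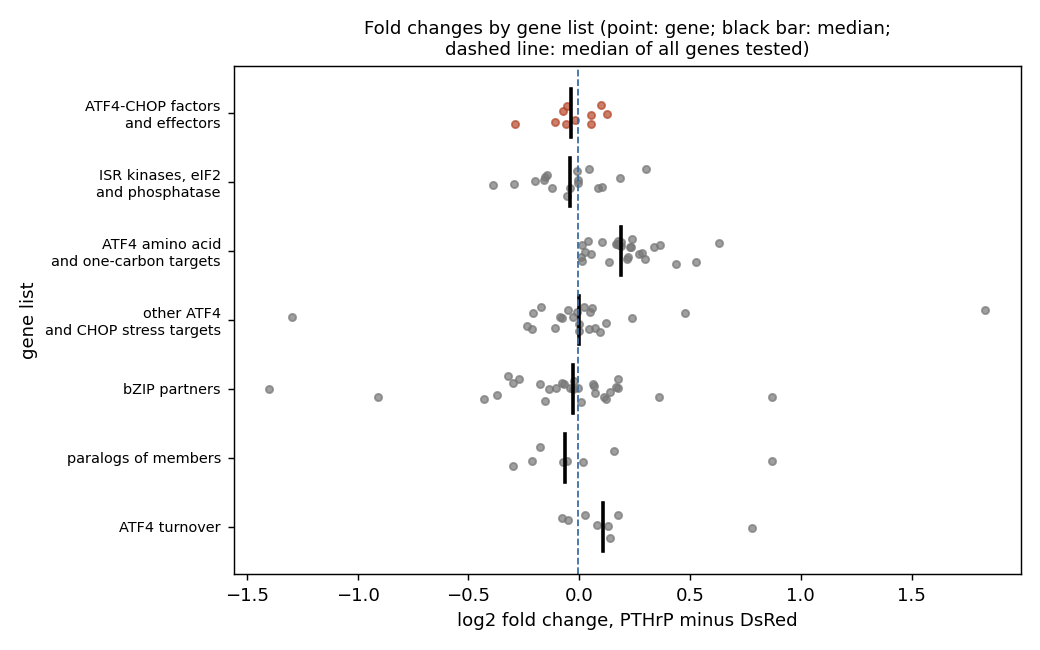
Log2 fold change, PTHrP minus DsRed (horizontal axis), of every tested gene in the 10-gene group and in the 6 other lists (rows), with black bars at the medians and a dashed line at the median of all genes tested. The amino acid and one-carbon targets lie to the right of 0 with a median of 0.19, and the 10 ATF4-CHOP genes lie around 0 with a median of -0.04.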

How the data were processed

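Per the submitters' processing notes, reads were handled with bcl2fastq, STAR and featureCounts 2.0.3 of the Subread package on GRCm38, and raw counts per gene and library were deposited. Group and replicate number are those of the title. The labels do not say whether replicates were separate cultures; p-values then measure only how far these samples spread, which may be technical. Of 55774 entries 287 repeated an identifier and were dropped. Genes were filtered with filterByExpr, scaled with TMM and tested two-sided across all genes with the edgeR 4.0.16 quasi-likelihood test (R 4.3.3) with a group term, at an adjusted p of 0.05. The SE is the coefficient over the root of its F value. Log2 CPM for distances and exact permutation tests carry a prior count of 2.

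The 10 genes, the lists and the tests were chosen with earlier results of these data known. Named are the 10 genes, the 3 genes of smallest p in each list, the 3 nearest genes to Atf4 and to Ddit3, Pthlh and Hspa5. Cbs is named as the lowest fold change of the supply genes and Gcg as the most abundant of the other markers. Trib2, Ppp1r15b, Egln3 and the overlap partners were added after their values were seen. Alternatives were RLE factors, no scaling beyond library size, no low-count filter, a filter of 1 CPM in 3 libraries, DESeq2 1.42.0, limma-voom 3.58.1, a replicate term and each library left out. The scripts were tested on simulated data. Exon lengths, overlaps and leaders are from GENCODE M21, promoters from RefSeq (GRCm38.p6, all 10 genes matched). Proteins were not used here.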

Additional observations from a re-analysis of the deposited data

How the results depend on the processing

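In all 13 alternatives 0 of the 10 genes were called. The number of all genes called was 14 with library sizes alone, 220 with no filter on low counts and 136 with DESeq2, against 9, and 2 to 213 when a library was left out (2 without DsRed replicate 2, 213 without PTHrP replicate 2). The cause was not tested. The median log2 fold change of the 10 was -0.05 to -0.03 under the 7 other settings and -0.068 to 0.020 when a library was left out. Non-overlapping groups were found for 2 or 3 of the 10 under those 7, where 10.4 to 19.9% of all genes did not overlap, and for 3 to 5 of the 10 when a library was left out, where 22.8 to 30.1% of all genes did not (27.9% for the 5, without DsRed replicate 3). Leaving out 1 library moved Ddit3 between -0.091 and 0.022, Atf4 between -0.028 and 0.11, Atf3 between -0.20 and 0.0040, Chac1 between -0.23 and 0.010, Sesn2 between -0.12 and 0.021 and Ppp1r15a between -0.16 and 0.039 (log2), while Cebpb moved between 0.0087 and 0.11 and Trib3, Atf5 and Cebpg also kept their sign. The labels do not say whether the replicate numbers pair the libraries, and here they only name the samples. Same-numbered libraries had correlations of 0.02, -0.11 and 0.02 over genes, and 2 of 6 libraries were closest to their own number. So few values, over genes of all levels, cannot tell whether the libraries were paired. With the replicate block 7 genes were called, 0 of them among the 10.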
